A study of Mus musculus with 24 samples.

Results

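The genes of cholesterol and fatty acid synthesis that are controlled by the sterol regulatory element-binding proteins (SREBPs) were followed across 24 RNA sequencing libraries of mouse embryonic fibroblasts (MEFs). The set holds 34 of the 55471 genes counted. It consists of 19 genes of the sterol branch, 9 genes of the fatty acid branch and 6 genes for the SREBPs, their partners and a sterol carrier. The genes were named one by one as members of the SREBP pathway, and the list was chosen on results of these libraries that were already known, without a record of the contrast that drew attention to it. The adjusted p-values below describe these genes and are not independent evidence about the pathway as a whole. All 34 genes passed the filter on low counts that left 17522 genes for testing.

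The libraries came from immortalized 3T3 MEFs of 4 kinds, with 3 libraries per kind and condition. Wild-type MEFs carried LKB1, the kinase encoded by Stk11. Lkb1-/- MEFs lacked it, and A1 and A2 were individual clones of Lkb1-/-/Crtc2-/- MEFs in which CRTC2, a coactivator of CREB held in check downstream of LKB1, had been disrupted by CRISPR-Cas9. A1 and A2 were therefore 1 clone each. The labels name no more than 1 wild-type and 1 Lkb1-/- line, and both clones were made from Lkb1-/- MEFs. Loss of LKB1 and other differences between these lines cannot be told apart. The cells were left untreated (ctrl) or stimulated with IL-1β at 0.1 ng/mL for 6 h, in medium with serum. The study asked how loss of LKB1, and CRTC2 downstream of it, shapes the answer of cells to an inflammatory stimulus. Nothing in the labels says that the 3 libraries of a group came from separate cultures, so the p-values measure the spread between libraries.

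Gene counts summed to between 38842901 and 48594394 per library, with a median of 42431965. Stk11 lay between 83.4 and 87.9 CPM (gene counts scaled to the effective library size) in the 6 wild-type libraries and between 16.3 and 23.2 CPM in the 18 others. Crtc2 lay between 41.1 and 56.4 CPM in the 12 libraries of A1 and A2, below the 79.1 to 84.6 CPM of the 6 Lkb1-/- libraries. Of 9 fibroblast markers, Vim, Col1a1 and Fn1 were abundant in every group, Thy1 was at 0.04 CPM or less in every group mean, and 4 were higher and 3 lower in untreated Lkb1-/- than in untreated wild-type MEFs, where 30.1% of all genes tested were higher and 25.8% lower. Dcn averaged 218 against 0.41 CPM, and Col1a2 63.0 against 780.1 CPM. The summed level of 7 adipocyte markers was 14.84 to 20.4 CPM per library in A1 and 7.83 to 13.15 CPM in the other groups. Adipoq, Plin1, Cidec, Lep and Cd36 were at 0.03 CPM or less in every group mean. Summed epithelial markers reached 0.447 CPM, leukocyte markers 6.82 CPM, almost all of it Cd68, and endothelial markers 3.80 CPM. The endothelial sum was 0.414 to 0.548 CPM in untreated wild-type and 2.43 to 2.85 CPM in untreated Lkb1-/- MEFs. The 6 proliferation genes summed to between 2248 and 2307 CPM in untreated wild-type and 2539 and 2782 CPM in untreated Lkb1-/- MEFs, and to between 2194 and 2654 CPM in stimulated Lkb1-/- MEFs, and their part in the results was not tested. A lower level in a bulk library cannot tell fewer cells with the transcript from less transcript per cell.

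Cells make cholesterol from acetyl-CoA through mevalonate, isoprenoids, squalene and lanosterol, and make fatty acids from the same precursor through malonyl-CoA. The SREBPs are membrane-bound transcription factors that SCAP carries from the endoplasmic reticulum to the Golgi, where proteases release their active part. INSIG proteins hold SCAP back when sterols are plentiful, so that transcription of the pathway falls. SREBP-2 is known mainly for the sterol genes and SREBP-1 for the fatty acid genes.

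In untreated cells, the sterol branch averaged 6.66, 7.03 and 6.98 log2 CPM over its 19 genes in the 3 wild-type libraries and 6.24, 6.31 and 6.42 in the 3 Lkb1-/- libraries, and the groups did not overlap. The fatty acid branch averaged 8.58, 8.86 and 8.83 log2 CPM in wild-type MEFs and 8.42, 8.57 and 8.67 in Lkb1-/- MEFs, and here the groups overlapped. The difference between the branches (sterol minus fatty acid) was −1.86 ± 0.05 (SD, n = 3) in wild-type MEFs and −2.23 ± 0.04 in Lkb1-/- MEFs. The shift between the lines was −0.367 untreated and −0.635 with IL-1β, and −0.758 and −1.29 when the median over each branch took the place of the mean. The sterol genes were thus lower relative to the fatty acid genes in all 3 Lkb1-/- libraries.

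With IL-1β, the sterol branch stood at 6.68, 6.97 and 6.93 log2 CPM in wild-type MEFs and at 5.68, 5.33 and 5.57 in Lkb1-/- MEFs. In clone A1 it went from 6.03, 6.09 and 6.36 without to 5.65, 5.58 and 5.79 with IL-1β, and in clone A2 from 6.04, 6.34 and 6.26 to 5.60, 5.41 and 5.32. In the LKB1-deficient lines, every stimulated library was below every untreated library of its own line. The mean of the fatty acid branch went from 8.55 to 7.94 in Lkb1-/- MEFs, from 8.34 to 7.92 in A1 and from 8.42 to 7.82 in A2. In wild-type MEFs it was 8.58, 8.86 and 8.83 without and 8.48, 8.73 and 8.71 with IL-1β, lower with IL-1β in each of the 3 pairs of the same replicate number, though the groups overlapped. The difference between the branches became −2.42 ± 0.23 in stimulated Lkb1-/- MEFs, −2.25 ± 0.11 in A1 and −2.38 ± 0.20 in A2, against −1.78 ± 0.02 in wild-type MEFs, where it was 0.0808 higher than untreated and did not overlap with it. In all 3 LKB1-deficient lines it overlapped between untreated and stimulated libraries, and the shift of −0.187 in Lkb1-/- MEFs ran from −0.319 to −0.0949 when 1 library was left out. By pairs of the same replicate number, the difference fell in all 3 pairs of A2. It rose in replicate 1 of Lkb1-/- MEFs (−2.18 to −2.15) and of A1 (−2.16 to −2.12) and fell in their replicates 2 and 3. Within each stimulated LKB1-deficient group, replicate 1 stood apart at −2.15, −2.12 and −2.15, and its sterol genes had the smallest drop from the untreated replicate of the same number. Insig2 was also lowest in replicate 1 of these 3 groups, at 50.3, 27.8 and 49.5 CPM. Reads without a gene made up 34.4, 33.1 and 33.9% in replicate 1 of Lkb1-/-, A1 and A2 with IL-1β and 27.2 to 28.8% in replicates 2 and 3. Their TMM scaling factors were 1.07, 1.05 and 1.08 in replicate 1 and 0.989 to 1.03 in replicates 2 and 3. Untreated replicate 1 of A2 had 34.01% and a factor of 1.09 as well, and the part of these values in the results was not tested. No test was made of these branch means.

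**Figure D1:**
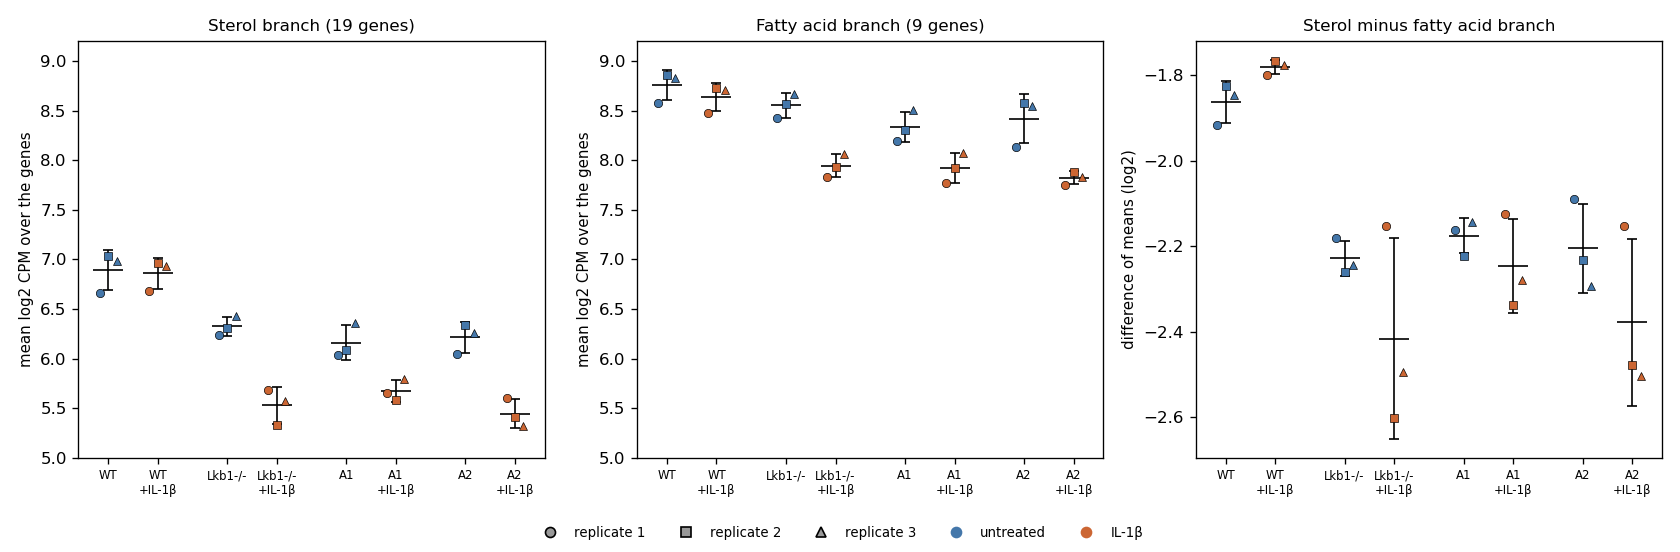
Mean log2 CPM over the 19 sterol genes (left), over the 9 fatty acid genes (middle) and their difference (right) in the 24 libraries; points are libraries, shapes replicate numbers, blue untreated and orange IL-1β, and horizontal lines with bars the group mean ± SD of 3 libraries. The sterol mean of wild-type MEFs was 6.89 without and 6.86 with IL-1β, while in Lkb1-/- MEFs it went from 6.32 to 5.53.

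Lkb1-/- MEFs were first set against wild-type MEFs without stimulus. Of the 34 genes, 24 were called at an adjusted p under 0.05 (edgeR quasi-likelihood test, Benjamini-Hochberg adjustment over all genes tested), 21 lower and 3 higher. In the same comparison 55.9% of all genes tested were called and 25.8% were called lower, so that a call of either kind was common between these lines while 61.8% of the pathway genes were lower. In the sterol branch, 14 of 19 genes were lower and 1 was higher, and the median over the branch was −0.65 on the log2 scale. In the fatty acid branch, 4 of 9 were lower and 1 was higher, with a median of −0.19. The median over all genes tested was 0.04.

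Hsd17b7, which acts in the demethylation of sterols, fell the most in the sterol branch. Its level was 140.5, 184 and 176 CPM in wild-type MEFs and 65.1, 70.6 and 72.7 CPM in Lkb1-/- MEFs (log2 fold change −1.27 ± 0.12 SE, adjusted p = 1.08e-08). Every Lkb1-/- library was far below the lowest wild-type library, which held 140.5 CPM. Hmgcs1, which forms HMG-CoA at the entry to the pathway, had 411, 493 and 465 CPM in the Lkb1-/- libraries against 522, 751 and 684 CPM in the wild-type ones (−0.52 ± 0.16, adjusted p = 0.00918). The groups did not overlap, but the call was lost without wild-type replicate 2 (adjusted p = 0.0605), as were those of Msmo1 and Stard4 (0.0506 and 0.0966). Idi1, the isomerase that yields the reactive isoprene unit, was at 70.8, 85.2 and 82.8 CPM and at 47.7, 45.2 and 56.2 CPM (−0.68 ± 0.17, adjusted p = 0.00197). Mvk (−0.23 ± 0.11, adjusted p = 0.0879), Fdps (−0.29 ± 0.21, adjusted p = 0.25), Sqle and Cyp51 (−0.30 ± 0.15, adjusted p = 0.0849) were not called.

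Fdft1, the squalene synthase, was the only sterol gene that rose. Lkb1-/- MEFs had 264, 281 and 303 CPM of it, and wild-type MEFs 150.0, 191 and 182 CPM (0.70 ± 0.13, adjusted p = 6.19e-05), without overlap. The next enzyme, squalene epoxidase (Sqle), was at 291, 347 and 332 CPM and 309, 344 and 346 CPM, and these groups overlapped (0.04 ± 0.11, adjusted p = 0.771).

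Among the fatty acid genes, the stearoyl-CoA desaturase Scd1 rose, from 525, 667 and 686 CPM in wild-type MEFs to 787, 953 and 1087 CPM in Lkb1-/- MEFs (0.59 ± 0.19, adjusted p = 0.0099). The groups did not overlap, but the call was lost without wild-type replicate 1 or without Lkb1-/- replicate 3 (adjusted p up to 0.0759). Its close paralogue Scd2 was at 2468, 3086 and 2942 CPM and 3113, 3518 and 3689 CPM and was not called (0.28 ± 0.13, adjusted p = 0.0673). Acss2, which makes acetyl-CoA from acetate, fell the most, from 25.6, 40.3 and 47 CPM to 18.5, 22.9 and 25.5 CPM (−0.76 ± 0.22, adjusted p = 0.00548). Fasn, the fatty acid synthase, went from 947, 1014 and 865 CPM to 715, 749 and 717 CPM (−0.37 ± 0.10, adjusted p = 0.0023). The lowest wild-type library of Fasn thus still lay above the highest Lkb1-/- library. Elovl6 (−0.65) and Acly (−0.49) were lower too, and Acaca, Fads1 and Fads2 were not called.

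The genes of the control machinery moved in both directions. Srebf2, which encodes SREBP-2, was higher in Lkb1-/- MEFs, at 463, 506 and 535 CPM against 326, 352 and 348 CPM (0.55 ± 0.10, adjusted p = 7.41e-05). Srebf1 was at 128, 139 and 145 CPM in wild-type and 115, 123 and 130.2 CPM in Lkb1-/- MEFs, with overlap and no call (−0.16 ± 0.09, adjusted p = 0.128). Insig1, itself a target of the SREBPs, fell from 193, 252 and 238 CPM to 152, 165 and 159.5 CPM (−0.52 ± 0.15, adjusted p = 0.0061). The SREBP-2 transcript was therefore higher where 14 of 19 sterol genes were lower. Stard4, a cytosolic sterol carrier, was at 185, 248 and 231 CPM and 152, 184 and 180.1 CPM (−0.36 ± 0.12, adjusted p = 0.0154), and Scap was lower by a small amount (−0.21 ± 0.06, adjusted p = 0.00651). Insig2 was not called (0.27 ± 0.13, adjusted p = 0.0831).

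With IL-1β present, more of the genes differed between Lkb1-/- and wild-type MEFs. Of the 34 genes, 31 were lower and 1 was higher, that is 91.2% lower, where 27.1% of all genes tested were lower and 57.4% were called in either direction. All 19 sterol genes were lower, 15 of them by more than 1 on the log2 scale, and their median was −1.42. Of the 9 fatty acid genes 8 were lower, with a median of −0.61, and Scd1 was not called (0.03 ± 0.18, adjusted p = 0.921). The 21 genes called lower without stimulus were all among the 31 called lower with it.

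Hsd17b7 again differed the most, at 149, 191 and 186 CPM in wild-type MEFs and 43.3, 34.5 and 40.8 CPM in Lkb1-/- MEFs (−2.15 ± 0.12, adjusted p = 3.8e-12). Hmgcs1 was at 589, 802 and 706 CPM against 217, 168 and 191 CPM (−1.87 ± 0.17, adjusted p = 3.53e-09), and Insig1 at 202, 243 and 229 CPM against 88.5, 62.4 and 71.5 CPM (−1.60 ± 0.16, adjusted p = 1.47e-08). In each of these the lowest wild-type library lay far above the highest Lkb1-/- library. Idi1 was at 77.4, 95.5 and 89 CPM and 33.7, 21.1 and 28.8 CPM (−1.65 ± 0.18, adjusted p = 6.39e-08), and Sqle at 314, 366 and 351 CPM and 217, 187 and 220.3 CPM (−0.72 ± 0.11, adjusted p = 6.57e-06). Neither pair of groups overlapped. Fdft1, higher in Lkb1-/- MEFs without stimulus, was now lower, at 153, 131 and 153 CPM against 166, 195 and 184 CPM (−0.32 ± 0.12, adjusted p = 0.0332). That call was lost with upper quartile scaling (adjusted p = 0.115) and without replicate 2 of either group (up to 0.146).

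In the fatty acid branch Elovl6, which elongates palmitate, showed the largest fall, from 364, 436 and 401 CPM to 171, 146 and 173 CPM (−1.29 ± 0.11, adjusted p = 2.03e-09). Fasn was at 949, 1086 and 923 CPM and 537, 503 and 521 CPM (−0.92 ± 0.10, adjusted p = 5.17e-08), and Acss2 at 20.9, 30.7 and 35.2 CPM and 9.72, 13.1 and 13.8 CPM (−1.24 ± 0.22, adjusted p = 6.24e-05). Both were without overlap between the lines. Scd1 was at 473, 569 and 594 CPM against 466, 551 and 648 CPM, and the groups overlapped. Scd2 was at 2272, 2779 and 2625 CPM against 1925, 1984 and 2225 CPM (−0.32 ± 0.13, adjusted p = 0.0351), a call that was lost without wild-type replicate 2 or Lkb1-/- replicate 1 or 2 (up to 0.141) and with upper quartile scaling. Insig2, the second INSIG form, was the only member that was higher, at 50.3, 67 and 62.4 CPM against 28.8, 32.3 and 31.7 CPM (0.95 ± 0.13, adjusted p = 2.08e-06). Insig1 and Insig2 therefore differed in opposite directions between the lines. Srebf2 did not differ by the test, at 366, 379 and 428 CPM against 355, 384 and 384 CPM (0.06 ± 0.10, adjusted p = 0.626), and Srebf1 was lower, at 93.1, 104 and 111 CPM against 118, 127 and 141 CPM (−0.32 ± 0.09, adjusted p = 0.00349). Stard4 was at 104, 101 and 110.1 CPM against 185, 244 and 226 CPM (−1.05 ± 0.12, adjusted p = 2.21e-07).

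**Figure D2:**
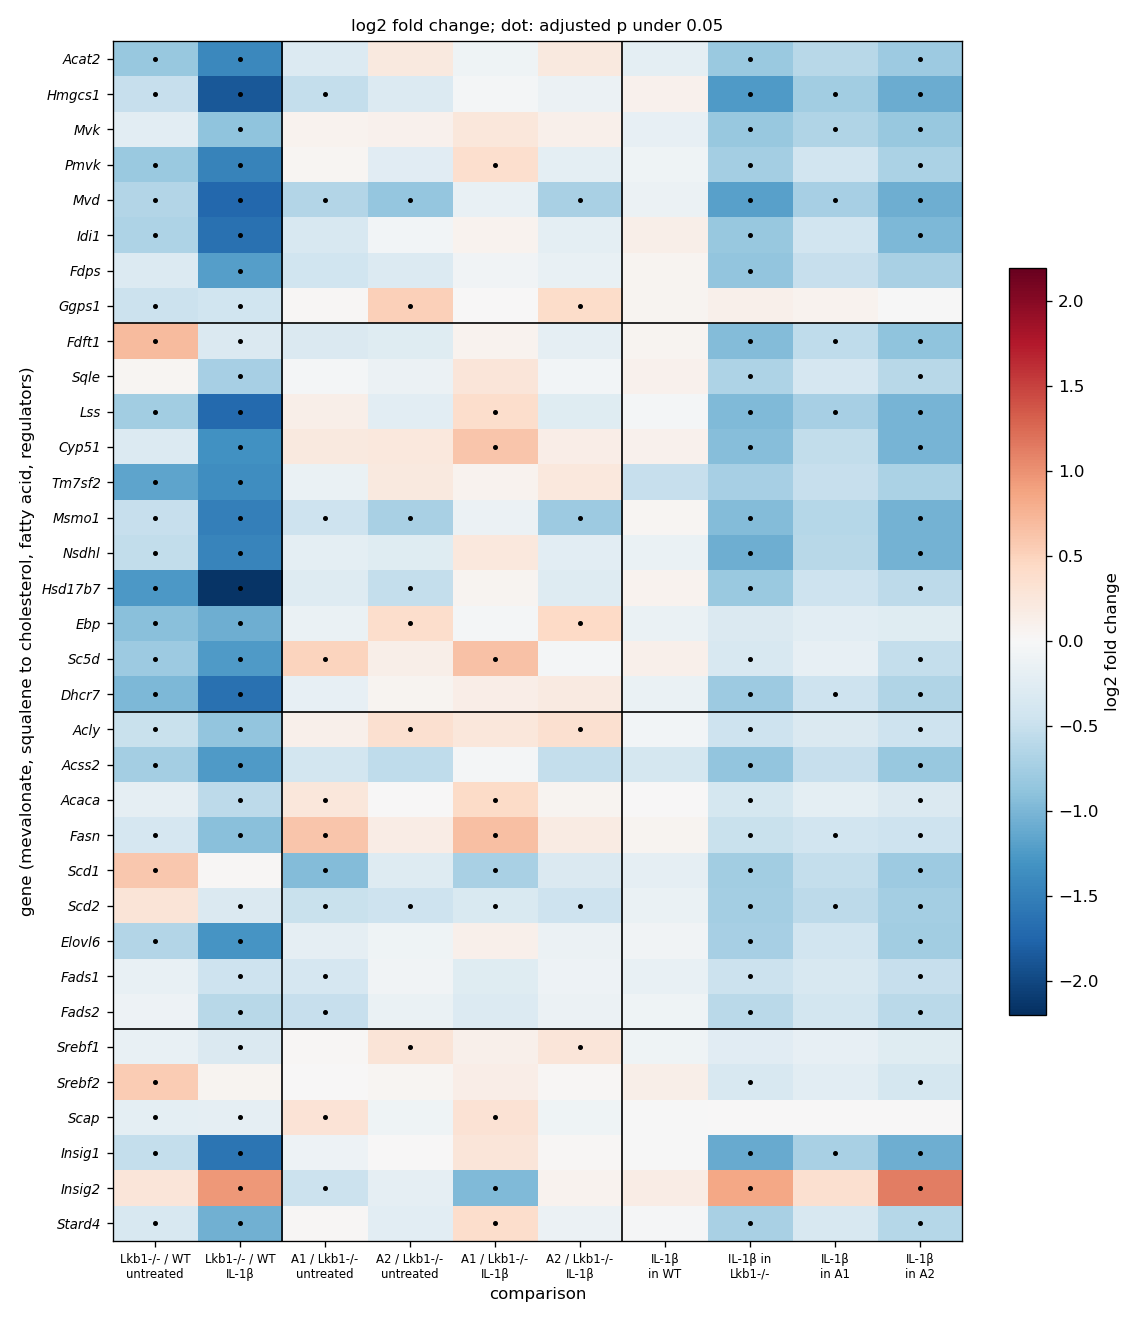
Log2 fold change of the 34 genes (rows) in 10 comparisons (columns), red higher and blue lower in the first-named group; a black dot marks an adjusted p under 0.05, and lines part the mevalonate arm, the steps from squalene to cholesterol, the fatty acid branch and the regulators. The column of IL-1β in wild-type MEFs holds no dot, and those of Lkb1-/- MEFs and clone A2 hold 29 and 28.

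The response to IL-1β was then taken within each line. In wild-type MEFs 0 of the 34 genes were called by edgeR, where 396 of 17522 genes (2.26%) were. At an unadjusted p under 0.05 there was 1 of 34, Tm7sf2 (−0.51 ± 0.20 on the log2 scale), and DESeq2 called 0. The median was 0.04 in the sterol branch. Among the 34 log2 fold changes, 14 were above and 20 below 0, from −0.51 to 0.17. Hmgcs1 (0.10 ± 0.16), Sqle (0.09 ± 0.11) and Insig1 (−0.02 ± 0.15) moved by less than their standard error. With the replicate number as a block, Acss2 was called lower (−0.37, adjusted p = 0.035 in the blocked fit), and 1 gene was called without untreated replicate 1.

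In Lkb1-/- MEFs the same stimulus lowered 28 of the 34 genes and raised 1, or 85.3% against 4.74% of all genes tested. Lower calls alone made up 2.09% of all genes. The sterol branch had 16 of 19 genes lower with a median of −0.84, and the fatty acid branch 9 of 9 with a median of −0.60. Hmgcs1 fell the most, from 411, 493 and 465 CPM to 217, 168 and 191 CPM (−1.25 ± 0.16, adjusted p = 3.24e-05). Mvd, which decarboxylates mevalonate diphosphate, fell from 52.1, 59.2 and 61.3 CPM to 26.9, 20.7 and 27.5 CPM (−1.20 ± 0.18, adjusted p = 0.000169). Insig1 fell by a like amount (−1.10 ± 0.15, adjusted p = 7.68e-05). For each of these genes, all 3 stimulated libraries were below all 3 untreated ones. Further down the sterol branch, Fdft1 (−0.96), Lss, the lanosterol synthase (−0.98), Cyp51, the lanosterol demethylase (−0.93), Msmo1 (−0.95) and Nsdhl (−1.07) fell by similar amounts. Acat2, a thiolase that starts the pathway (−0.81), Mvk and Pmvk, the kinases of mevalonate (−0.84 and −0.74), and Dhcr7, a late reductase (−0.80), were lower as well. Ggps1, which serves protein prenylation, Tm7sf2 and Ebp were the sterol genes without a call (0.11 ± 0.08, adjusted p = 0.601, then −0.72 ± 0.21, adjusted p = 0.0563, and −0.32 ± 0.13, adjusted p = 0.211). With the replicate block, Tm7sf2 (adjusted p = 0.00868) and Ebp (adjusted p = 0.0082) were called lower.

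In the fatty acid branch of Lkb1-/- MEFs, Acss2 had the largest fall (−0.87 ± 0.22, adjusted p = 0.0239). Scd1 (−0.76 ± 0.19, adjusted p = 0.0165), Scd2 (−0.75 ± 0.13, adjusted p = 0.000713) and Elovl6 (−0.73 ± 0.11, adjusted p = 0.00019) fell as well. Scd2, the most abundant of the 34 transcripts, went from 3113, 3518 and 3689 CPM to 1925, 1984 and 2225 CPM. Fasn fell less (−0.48 ± 0.10, adjusted p = 0.0035), as did Acaca, the acetyl-CoA carboxylase (−0.38), and the polyunsaturated fatty acid desaturases Fads1 (−0.47) and Fads2 (−0.60). The calls of Acss2, Scd1, Acly, Acaca and Fads1 were lost without untreated replicate 2 or stimulated replicate 1, and all of these but Acaca also without untreated replicate 3 or stimulated replicate 2 (adjusted p up to 0.142, 0.103, 0.168, 0.075 and 0.17). Those of Fasn, Scd2, Elovl6 and Fads2 were kept in all 6 such fits, as were 14 of the 16 sterol calls. The exceptions were Fdps (up to 0.135) and Sc5d (up to 0.172), both of which held only without stimulated replicate 1.

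The regulators did not follow as one. Insig2 rose from 31.8, 33.4 and 34.4 CPM to 50.3, 67 and 62.4 CPM (0.85 ± 0.13, adjusted p = 0.000216) while Insig1 fell from 152, 165 and 159.5 CPM to 88.5, 62.4 and 71.5 CPM. Stard4 fell from 152, 184 and 180.1 CPM to 104, 101 and 110.1 CPM (−0.71 ± 0.12, adjusted p = 0.000759). Srebf2 fell less (−0.36 ± 0.10, adjusted p = 0.0413), and the call was lost without stimulated replicate 1 or 2 or untreated replicate 2 or 3 (up to 0.184). Scap (0.01 ± 0.06, adjusted p = 0.973) and Srebf1 (−0.25 ± 0.09, adjusted p = 0.131) were not called, although with the replicate block Srebf1 was (adjusted p = 0.000384).

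**Figure D3:**
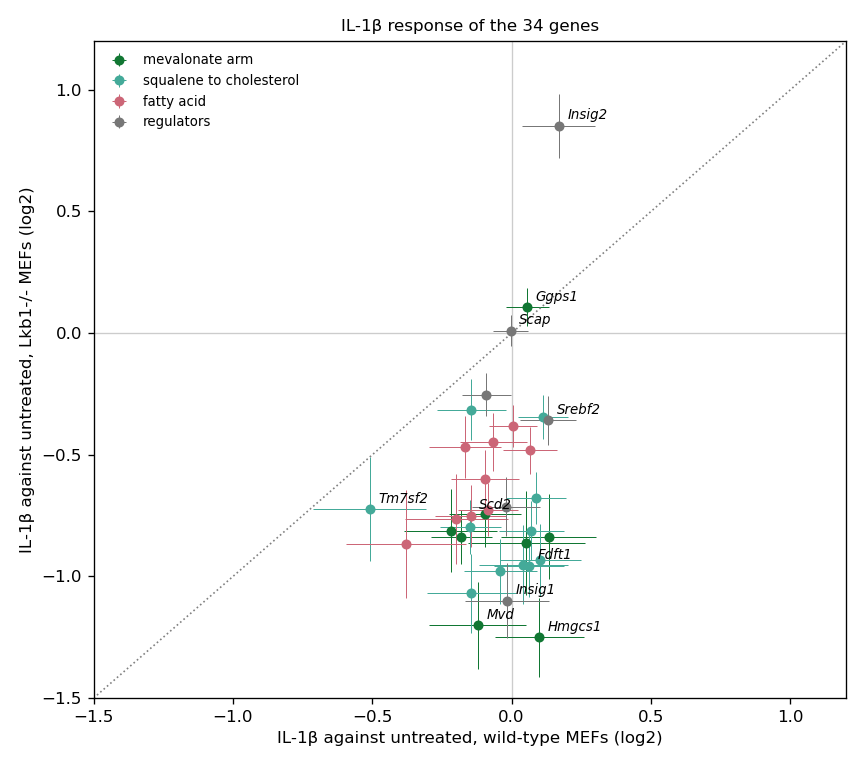
Log2 fold change with IL-1β in wild-type MEFs (horizontal) and in Lkb1-/- MEFs (vertical) for the 34 genes; bars are standard errors, colours the arms of the pathway, and the dotted line equal responses. Most points lie near 0 on the horizontal axis and below 0 on the vertical axis, down to −1.25 for Hmgcs1, with Insig2 at 0.85.

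Whether the responses of the lines differed was tested directly, as Lkb1-/- response minus wild-type response. Of the 34 genes, 7 were called and all 7 were lower (20.6%), where 43 of all genes tested were called (0.245%) and 0.108% were called lower. They were Hmgcs1 (−1.35 ± 0.23, adjusted p = 0.00779), Fdft1 (−1.02 ± 0.18, adjusted p = 0.0096), Insig1 (−1.08 ± 0.21, adjusted p = 0.0307), Cyp51 (−1.04 ± 0.21, adjusted p = 0.0307), Lss (−0.94 ± 0.19, adjusted p = 0.0307), Hsd17b7 (−0.88 ± 0.17, adjusted p = 0.0236) and Sqle (−0.76 ± 0.15, adjusted p = 0.0307). Each of the 7 lies in the sterol branch but for Insig1, and 0 of the 9 fatty acid genes were called, with values for Scd2 (−0.60 ± 0.18, adjusted p = 0.306), Fasn (−0.55 ± 0.14, adjusted p = 0.138) and Elovl6 (−0.64 ± 0.15, adjusted p = 0.11). Fatty acid genes were called in other fits, however, and a response confined to the sterol branch was not shown. Of the 9, 7 passed in the fit blocked by replicate number (26 of the 34 genes), 9 with a block within each genotype (29 of 34), 2 with DESeq2 (17 of 34) and 5 without a filter on low counts (25 of 34). The share of all genes called was not taken in these other fits, so their counts cannot be set beside it. The numbers paired the libraries in the IL-1β comparison of both lines, but not the untreated libraries of Lkb1-/- and wild-type MEFs. Of the 7 calls, those of Cyp51 and Hsd17b7 were lost when only the groups compared were fitted (adjusted p = 0.0865 and 0.0796), and that of Sqle with unstranded counts (0.0625). At an unadjusted p under 0.05 there were 27 of the 34 genes, against 985 of 17522. The calls of Hmgcs1 and Fdft1 held in all 12 fits that left out 1 library. The other 5 were all lost without wild-type untreated replicate 1 or 3, wild-type stimulated replicate 2 or 3, or Lkb1-/- replicate 2 or 3 of either condition, when 2 genes were called (adjusted p up to 0.134). Insig1, Cyp51 and Lss were also lost without Lkb1-/- untreated replicate 1, while 9 genes were called without Lkb1-/- stimulated replicate 1. Insig2 differed in the other direction without a call (0.68 ± 0.18, adjusted p = 0.207).

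The plot of levels by library shows these patterns for 6 genes. In the group means of Hmgcs1 and Insig1 both wild-type groups were highest, the 3 untreated LKB1-deficient groups lay below them and the 3 stimulated ones were lowest, and the order within these tiers differed between the genes. Srebf2 was lowest in untreated wild-type MEFs, and Insig2 was highest in stimulated Lkb1-/- MEFs and clone A2.

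**Figure D4:**
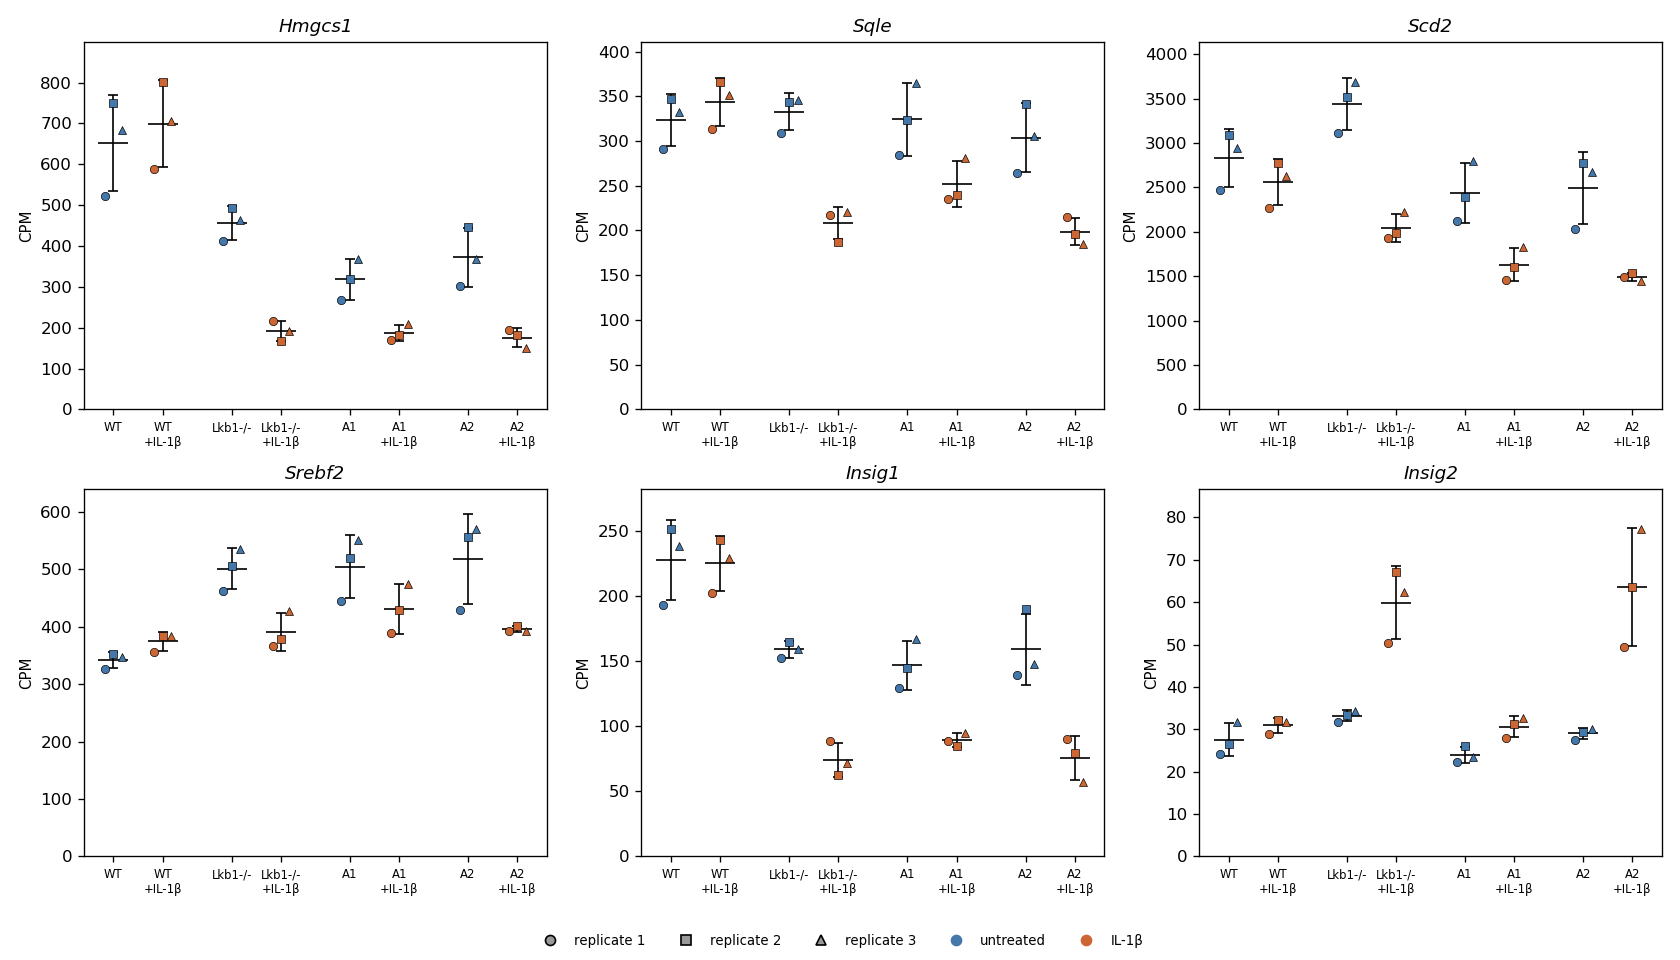
CPM (linear axis from 0) of Hmgcs1, Sqle, Scd2, Srebf2, Insig1 and Insig2 in the 24 libraries; shapes are replicate numbers, blue untreated and orange IL-1β, lines with bars the mean ± SD of 3 libraries. Insig2 averaged 33.2 CPM without and 59.9 CPM with IL-1β in Lkb1-/- MEFs, and 23.9 and 30.6 CPM in clone A1.

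The same comparison was made in clones A1 and A2. In clone A2, IL-1β lowered 27 genes and raised 1 (82.4% called, against 5.68% of all genes, of which 2.86% lower). In the sterol branch 15 of 19 were lower with a median of −0.80, and in the fatty acid branch 9 of 9 with a median of −0.59. The 27 genes were all among the 28 that fell in Lkb1-/- MEFs, and only Fdps was missing. The libraries were separate, but A2 was made from Lkb1-/- MEFs and the replicate numbers paired both sets. The overlap is thus not independent. Hmgcs1 went from 302, 447 and 367 CPM to 194, 182 and 149 CPM (−1.09 ± 0.16, adjusted p = 0.000153), Insig1 from 139, 190.1 and 148 CPM to 89.9, 79.2 and 57.3 CPM (−1.07 ± 0.15, adjusted p = 9.55e-05). Both dropped in every library below the lowest untreated one. Insig2 rose from 27.5, 29.5 and 30.1 CPM to 49.5, 63.6 and 77.4 CPM (1.13 ± 0.13, adjusted p = 7.15e-06). Among fatty acid genes, Acss2 fell the most, from 10.7, 17.8 and 17.1 CPM to 7.11, 9.43 and 8.89 CPM (−0.84 ± 0.23, adjusted p = 0.0297), a call lost without untreated replicate 2 or 3 or stimulated replicate 1 or 3 (up to 0.141). Of the other fatty acid calls in A2, those of Acly, Acaca, Fads1 and Scd1 were also lost without untreated replicate 3, all but Scd1 without untreated replicate 2, Acly and Fads1 without stimulated replicate 1, and Acly and Acaca without stimulated replicate 3 (adjusted p up to 0.125, 0.0972, 0.116 and 0.056). Srebf2 went from 429, 556 and 571 CPM to 393, 402 and 393 CPM (−0.39 ± 0.10, adjusted p = 0.0216), a call lost without untreated replicate 2 or 3 (up to 0.096). With the block, Fdps, Tm7sf2, Ebp and Srebf1 were called lower in addition. When only the A2 libraries were fitted, 16 genes were called.

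In clone A1, 9 genes were lower and 0 higher (26.5%, against 1.99% of all genes called and 0.788% called lower), with medians of −0.51 in the sterol branch (6 of 19 called) and −0.41 in the fatty acid branch (2 of 9). Hmgcs1 fell from 267, 319 and 368 CPM to 169.9, 181 and 209 CPM (−0.77 ± 0.16, adjusted p = 0.0113) and Insig1 from 129, 145 and 167 CPM to 88.5, 84.8 and 94.9 CPM (−0.72 ± 0.15, adjusted p = 0.0128). Scd2 fell the most of the fatty acid genes, from 2118, 2394 and 2799 CPM to 1452, 1607 and 1826 CPM (−0.58 ± 0.13, adjusted p = 0.0164). None of these 3 overlapped between conditions. The replicate numbers paired the libraries of this clone, and with the number as a block 26 genes were called lower and 1 higher. The share of all genes called in that fit was not taken. Without untreated replicate 3 or stimulated replicate 1 or 2, 2 genes were called, Mvk and Lss. The calls of Scd2 and Fasn were also lost without untreated replicate 2, and that of Fasn without stimulated replicate 3. Insig2 was at 22.3, 25.9 and 23.5 CPM and 27.8, 31.3 and 32.7 CPM (0.36 ± 0.13, adjusted p = 0.248), a rise that the blocked fit called (adjusted p = 0.00835). Fasn (−0.42 ± 0.10, adjusted p = 0.0241) was called, while Scd1 (−0.53 ± 0.19, adjusted p = 0.21) and Acss2 (−0.51 ± 0.22, adjusted p = 0.395) were not, although both were in the blocked fit (adjusted p = 6.61e-05 and 0.00533).

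The difference between the responses of each clone and of Lkb1-/- MEFs was tested too. For A1, 0 of 34 genes were called by edgeR and 0 by DESeq2, against 0.0285% of all genes, and 5 had an unadjusted p under 0.05. With a block within each genotype, 6 were called (5 higher and 1, Insig2, lower), and without a filter on low counts 2, Hmgcs1 and Nsdhl. All but 2 of the 34 differences were above 0, with a median of 0.24. Hmgcs1 differed by 0.48 ± 0.23 and Insig2 by −0.50 ± 0.18. For A2, 0 were called by either tool, against 0% of all genes, and 0 had an unadjusted p under 0.05, where 388 of all genes did. The median of the 34 differences was 0.02, and they ran from −0.18 to 0.28, with Hmgcs1 at 0.16 ± 0.23 and Insig2 at 0.28 ± 0.18. Both of these tests used 1 set of Lkb1-/- libraries, and the results are not independent.

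Set against Lkb1-/- MEFs at one condition, the clones differed from them in a minority of the genes. Without stimulus, 12 of the 34 genes were called in A1 (4 higher, 8 lower), as common as in all genes (35.3%), and 8 in A2 (4 higher, 4 lower), against 32.3%. With IL-1β, 11 were called in A1 (8 higher, 3 lower) against 36.7%, and 7 in A2 (4 higher, 3 lower) against 32.8%. These shares were near or under those of all genes. With the block, 17 were called in stimulated A1, where the share of all genes was not taken. Without Lkb1-/- stimulated replicate 2, 7 were. In untreated A2, leaving out Lkb1-/- replicate 2 or A2 replicate 3 left 5. The replicate numbers paired the libraries of A2 with those of Lkb1-/- MEFs, and with the block Acss2 was called lower in A2 in both conditions (adjusted p = 0.000269 untreated and 0.00128 with IL-1β), as was Scd1 (0.00257 and 0.00123). Fdft1 and Stard4 were then called lower in untreated A2 (0.0256 and 0.00651) and Hsd17b7 in stimulated A2 (0.0247), while Sqle was called higher in stimulated A1 (0.0142).

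Some of these differences had 1 direction in both conditions. Scd1 was lower in A1, at 425, 477 and 557 CPM untreated (−0.95 ± 0.19, adjusted p = 0.000391) and at 306, 334 and 372 CPM with IL-1β (−0.72 ± 0.19, adjusted p = 0.00431). Fasn was higher in A1, at 1051, 1081 and 1178 CPM (0.60 ± 0.10, adjusted p = 5.02e-05) and 814, 822 and 841 CPM (0.67 ± 0.10, adjusted p = 1.55e-05). A1 thus had more of the transcript for the synthase and less of that for the desaturase than Lkb1-/- MEFs. Sc5d, a late desaturase of sterols, was higher in A1, at 229, 239 and 271 CPM against 171, 179 and 179 CPM untreated (0.48 ± 0.09, adjusted p = 0.000241) and by 0.65 ± 0.09 with IL-1β (adjusted p = 9.82e-06). Mvd was the sterol gene with the largest fall in untreated A1, at 30.8, 34.5 and 45.1 CPM (−0.64 ± 0.18, adjusted p = 0.00655), and with IL-1β it was not called (−0.17 ± 0.18, adjusted p = 0.519). Insig2 was lower in A1 without (−0.47 ± 0.13, adjusted p = 0.00723) and with IL-1β (−0.97 ± 0.13, adjusted p = 6.15e-06). Scap was higher in A1 in both conditions (0.31 and 0.31), and Stard4 with IL-1β, at 125, 137 and 148 CPM (0.38 ± 0.12, adjusted p = 0.0183), a call lost without Lkb1-/- stimulated replicate 1 or 2 or A1 replicate 3 (up to 0.063).

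In A2, Mvd was lower untreated, at 27.5, 38.6 and 29.9 CPM (−0.85 ± 0.18, adjusted p = 0.000884), and with IL-1β, at 17.6, 14.7 and 13.4 CPM (−0.71 ± 0.18, adjusted p = 0.00432). Msmo1, a methylsterol monooxygenase, was at 115, 82 and 67 CPM with IL-1β against 194, 119 and 147 CPM in Lkb1-/- MEFs (−0.80 ± 0.16, adjusted p = 0.000686). Ggps1 was higher in A2, at 52.7, 58.9 and 59.7 CPM against 36.1, 40.7 and 42.1 CPM untreated (0.53 ± 0.08, adjusted p = 2.48e-05). These 3 genes of 1 branch thus did not move alike. Ebp, a sterol isomerase, was higher as well, by 0.43 ± 0.13 with IL-1β (adjusted p = 0.0106), which was lost without A2 replicate 3 (adjusted p = 0.0534). Scd2 was lower in A2, at 2033, 2776 and 2673 CPM untreated (−0.46 ± 0.13, adjusted p = 0.00763) and 1486, 1537 and 1448 CPM with IL-1β (−0.46 ± 0.13, adjusted p = 0.00836). Acly (0.35 ± 0.12, adjusted p = 0.0279) and Srebf1, at 128, 153 and 166 CPM (0.28 ± 0.09, adjusted p = 0.0189), were higher without stimulus with overlap between the groups, and both calls were lost without Lkb1-/- replicate 2 or A2 replicate 3, that of Acly also without Lkb1-/- replicate 1 or A2 replicate 2 (adjusted p up to 0.0829 and 0.0559). With IL-1β they were higher by 0.35 and 0.27 (adjusted p = 0.03 and 0.024), and were lost without Lkb1-/- replicate 1 or 2, Acly also without A2 replicate 2 and Srebf1 without A2 replicate 3 (adjusted p up to 0.126 and 0.131).

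The 2 clones also differed from each other. Without stimulus 11 genes were called (6 higher in A2, 5 lower), against 32.5% of all genes, and 6 without A1 replicate 2. With IL-1β 16 were called (3 higher, 13 lower), against 30.7% of all genes called and 15.6% called lower. In the sterol branch 9 of 19 were lower and 2 higher. The replicate block gave 24 calls and added Scd1 (adjusted p = 0.000279) and Srebf1 (0.0105) as higher and Acss2 (0.00239) as lower in A2. Insig2 had the largest difference with IL-1β, at 49.5, 63.6 and 77.4 CPM in A2 against 27.8, 31.3 and 32.7 CPM in A1 (1.05 ± 0.13, adjusted p = 3.21e-06). Sc5d was lower in A2, at 143, 134 and 127 CPM against 214, 202 and 235 CPM (−0.69 ± 0.09, adjusted p = 6.4e-06), as was Fasn, at 671, 608 and 489 CPM (−0.49 ± 0.10, adjusted p = 0.000566). Stard4 was at 91.3, 99.4 and 96 CPM in A2 (−0.52 ± 0.12, adjusted p = 0.00264) and Ebp was higher (0.48 ± 0.13, adjusted p = 0.00572). In untreated cells Scd1 was higher in A2, at 529, 877 and 922 CPM, than in A1 (0.67 ± 0.19, adjusted p = 0.00776), although the groups overlapped. Ebp (0.53) and Srebf1 (0.25) were higher too, and Fasn (−0.44), Scap (−0.40) and Lss (−0.36) lower. The calls of Srebf1 and Lss were both lost without A1 replicate 2 or 3 or A2 replicate 3, that of Srebf1 also without A1 replicate 1 or A2 replicate 2 and that of Lss without A2 replicate 1 (adjusted p up to 0.142 and 0.204). Loss of CRTC2 and the history of a single clone cannot be told apart.

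The remaining values of the main enzymes in the clones were as follows. Idi1 was at 35.1, 34.6 and 47.7 CPM in untreated and 30.6, 25.9 and 31.5 CPM in stimulated A1, and at 47.7, 49.2 and 45.9 CPM and 31.4, 22.6 and 18.1 CPM in A2. Sqle was at 284, 324 and 365 CPM and 235, 239 and 281 CPM in A1, and at 264, 341 and 306 CPM and 215, 197 and 185 CPM in A2. In both genes all stimulated libraries were below the untreated ones. In the fit without a block, the call was made in A2 (−0.98 ± 0.18, adjusted p = 0.00103, and −0.61 ± 0.11, adjusted p = 0.000922) and not in A1. Fasn was at 735, 894 and 803 CPM in untreated A2. Acss2 was at 17, 15.7 and 18.1 CPM and 10.5, 12.4 and 12.7 CPM in A1. Scd1 was at 356, 466 and 509.6 CPM in stimulated A2, down from the untreated cells (−0.81 ± 0.19, adjusted p = 0.0101), a call lost without untreated replicate 3 (0.056). Srebf2 was at 444, 519 and 550.5 CPM and 389, 429.9 and 475 CPM in A1, Srebf1 at 121, 128 and 127 CPM and 107, 113 and 114 CPM in A1 and at 115, 125 and 130.4 CPM in stimulated A2. Stard4 was at 153, 176 and 197 CPM in untreated A1 and 125, 164 and 152 CPM in untreated A2.

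Per length of exon, levels can be set side by side between genes. The length was that of all annotated exons together, 10163 bases for Acss2 and 4403 for Tm7sf2, and can exceed that of a transcript. By CPM, untreated wild-type MEFs averaged 37.7 for Acss2 and 16.3 for Tm7sf2. In untreated wild-type MEFs, Scd2 was the highest of the 34 at 518 RPKM, which is CPM per kilobase of exon, followed by Hmgcs1 at 142 and Scd1 at 128, and Acss2 and Tm7sf2 were the lowest, both at 3.7 RPKM. In stimulated Lkb1-/- MEFs, Hmgcs1 had gone to 41.8 RPKM, below Srebf2 at 54.4 RPKM. Insig1 stood at 73.6 RPKM against 7.9 RPKM of Insig2 in untreated wild-type MEFs, and at 24 against 17.2 RPKM in stimulated Lkb1-/- MEFs. In stimulated A2 the values were 24.4 and 18.3 RPKM, and in stimulated A1 28.9 and 8.81 RPKM. The INSIG transcripts were thus closer in level in stimulated Lkb1-/- MEFs and A2 than in the other groups. Scd1 and Scd2, which are close paralogues, and Fdps may have lost reads that map to more than 1 place, and their levels are uncertain.

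The stretch before the start of transcription was read for the 27 of the 34 genes that RefSeq windows covered (GRCm38.p6, 250 bases before to 50 after the start). The core TCACNCCAC of the sterol regulatory element was searched on both strands together with CCAAT, the box bound by NF-Y, CACGTG, the palindromic E-box, and TGACG and TGACGTCA, the short and full sites of CREB, of which the full site contains the short one. CCAAT was found in 22 of 27 (81.5%), and in 15 of 16 sterol genes (93.8%) and 3 of 6 fatty acid genes, against 41.1% of the 27025 genes with a window. CACGTG was found in 5 (18.5%), against 8.1%, and TGACG in 10 (37.0%), against 23%. TGACGTCA was found in 0 of 27, against 2.0%. TCACNCCAC was found in Hmgcs1 alone, against 1.4% of all genes, and other forms of the element were not searched. A match is a run of letters and not a site shown to be used.

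The 200 bases before the start are given for the 5 genes with a window among the 7 whose response differed between the lines, and for Insig2, which moved against them. Each is written 5′ to 3′ on the strand of the gene. Capitals mark CCAAT on either strand, TCACNCCAC and CACGTG.
Hmgcs1, chr13:119690151-119690350, plus strand: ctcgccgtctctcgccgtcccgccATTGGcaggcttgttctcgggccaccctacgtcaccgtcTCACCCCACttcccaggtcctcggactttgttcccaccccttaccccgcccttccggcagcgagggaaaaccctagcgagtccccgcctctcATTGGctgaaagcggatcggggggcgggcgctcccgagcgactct
Lss, chr10:76531405-76531604, plus strand: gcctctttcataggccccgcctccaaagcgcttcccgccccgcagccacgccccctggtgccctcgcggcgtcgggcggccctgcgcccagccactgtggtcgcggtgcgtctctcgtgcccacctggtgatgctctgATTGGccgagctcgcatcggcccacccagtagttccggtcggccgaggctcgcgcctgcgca
Cyp51, chr5:4104698-4104897, minus strand: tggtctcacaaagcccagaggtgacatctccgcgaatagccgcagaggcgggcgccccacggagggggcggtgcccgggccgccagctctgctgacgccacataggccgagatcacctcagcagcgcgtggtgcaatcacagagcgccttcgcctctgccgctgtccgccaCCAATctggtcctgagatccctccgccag
Hsd17b7, chr1:169969206-169969405, minus strand: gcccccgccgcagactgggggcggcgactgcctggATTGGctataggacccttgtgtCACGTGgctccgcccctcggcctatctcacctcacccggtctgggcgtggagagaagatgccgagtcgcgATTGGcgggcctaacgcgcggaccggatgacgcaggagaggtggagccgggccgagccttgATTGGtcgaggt
Insig1, chr5:28071212-28071411, plus strand: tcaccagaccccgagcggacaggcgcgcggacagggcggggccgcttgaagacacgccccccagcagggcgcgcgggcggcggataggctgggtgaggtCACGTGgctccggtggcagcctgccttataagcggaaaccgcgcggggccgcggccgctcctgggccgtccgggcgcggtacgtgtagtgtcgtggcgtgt
Insig2, chr1:121332590-121332789, minus strand: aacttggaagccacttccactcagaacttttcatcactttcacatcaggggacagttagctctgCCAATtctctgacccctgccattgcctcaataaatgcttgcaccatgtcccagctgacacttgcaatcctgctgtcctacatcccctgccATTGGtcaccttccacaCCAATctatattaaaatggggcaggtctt

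Hmgcs1 has 2 boxes of CCAAT in this stretch, on the opposite strand, with the sterol element between them. Lss and Cyp51 have 1 box each and Hsd17b7 has 3, with 1 E-box. Insig1 has the E-box and no CCAAT within the 200 bases, and Insig2 has 3 boxes of CCAAT in the stretch shown. RefSeq gives 3 windows for Insig2, of which 1, the one nearest the annotated start of the gene, holds CCAAT.

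Other genes of the pathway were taken from 4 fixed lists. Of 7 genes that process or degrade the SREBP and INSIG machinery, 0 were called with IL-1β in any of the 4 lines, with log2 fold changes between −0.17 and 0.13. With 2.26%, 4.74%, 1.99% and 5.68% of all genes called in wild-type, Lkb1-/-, A1 and A2 cells, a count of 0 is near what these shares give for 7 genes. Between untreated Lkb1-/- and wild-type MEFs 2 were higher, led by Mbtps1, a protease that cuts the SREBPs (0.48 ± 0.09, adjusted p = 9.25e-05), and 3 were lower, led by Erlin2 (−0.58 ± 0.08, adjusted p = 2.02e-06), where 55.9% of all genes were called. In A1 and A2 against untreated Lkb1-/- MEFs, 4 and 5 of the 7 were lower and 1 and 0 higher, where 16.4% and 15.1% of all genes were lower, and Mbtps1 was the largest in A1 (−0.48 ± 0.09, adjusted p = 0.000208). Of 13 other lipid genes, 8 were lower and 3 higher in untreated Lkb1-/- than in wild-type MEFs, from Acacb (−1.28 ± 0.27, adjusted p = 0.000331) to Acsl1 (0.60 ± 0.10, adjusted p = 4.82e-05), where 25.8% of all genes were called lower and 30.1% higher. IL-1β lowered 6 in Lkb1-/- MEFs, 2 in A1, 5 in A2 and 0 in wild-type MEFs, against 2.09%, 0.788%, 2.86% and 0.731% of all genes. Lpin1, a phosphatidate phosphatase and known SREBP target, fell the most in Lkb1-/- MEFs, from 36.9, 44.1 and 36.5 CPM to 17.8, 17.6 and 19.9 CPM (−1.09 ± 0.17, adjusted p = 0.000268), with wild-type MEFs at 61.6, 87 and 76 CPM and 60.7, 83.2 and 73.8 CPM. It also fell the most in A1 (−0.76 ± 0.17, adjusted p = 0.0169) and A2 (−0.85 ± 0.17, adjusted p = 0.00302), where Acsl1 was the 1 gene that rose (0.45 ± 0.10, adjusted p = 0.011). The difference in response between Lkb1-/- and wild-type MEFs was called for Aacs, acetoacetyl-CoA synthetase (−0.70 ± 0.12, adjusted p = 0.0096), and not for Lpin1 (−1.04 ± 0.24, adjusted p = 0.0757).

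Of 8 genes that use isoprenoids for coenzyme Q, dolichol or prenylated proteins, IL-1β raised 1 in Lkb1-/- MEFs and in A2, Nus1 (0.56 ± 0.07, adjusted p = 2.64e-05, and 0.27 ± 0.07, adjusted p = 0.0226), and lowered 0 in any line. Between untreated lines 4 were lower and 1 higher in Lkb1-/- than in wild-type MEFs, with Pdss2 the lowest (−1.26 ± 0.09, adjusted p = 1.71e-10) and Fnta the highest (0.43 ± 0.05, adjusted p = 7.61e-08), where 25.8% of all genes were lower and 30.1% higher. A count of 0 is near what the share of all genes called lower gives for 8 genes (2.09% in Lkb1-/- MEFs, 0.788% in A1 and 2.86% in A2). Of 6 genes of oxysterol signaling, Ch25h, the enzyme for an oxysterol that inhibits SREBP processing, was at 0 or 1 count in each of the 6 wild-type libraries. It was at 2.74, 4.01 and 2.81 CPM in untreated and 20.4, 31.4 and 29.1 CPM in stimulated Lkb1-/- MEFs (3.08 ± 0.31, adjusted p = 1.14e-06), and rose in A1 (2.54 ± 0.31, adjusted p = 3.32e-05) and A2 (3.10 ± 0.32, adjusted p = 1.39e-06). Of the other 5, Abca1 was called in A2 (0.72 ± 0.17, adjusted p = 0.0122), where its response did not differ by the test from that of Lkb1-/- MEFs (0.67 ± 0.24, adjusted p = 1), and 0 fell. Between untreated Lkb1-/- and wild-type MEFs 4 of the 6 genes were higher and 1 lower, Mylip (−0.59 ± 0.20, adjusted p = 0.0179), against the same shares of all genes. All 4 were higher by more than 1 on the log2 scale, and the median over the 6 was 5.85. Ch25h, at 0 or 1 count in wild-type libraries, has an uncertain fold change there. Ch25h was thus higher in the groups in which the sterol genes were lower, and its part in their change was not tested.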

How the data were processed

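RNA sequencing gave 24 libraries of MEFs (8 groups of 3). CPM are gene counts scaled by the library total times its TMM factor. The authors trimmed reads with Trim Galore 0.6.0, mapped them with STAR 2.7.8a to the mouse genome (GRCm38, with GENCODE vM24) and deposited raw read counts per gene from uniquely mapped reads, so that reads shared by paralogues are missing. The counts of the second read strand were used. Gene symbols came from GENCODE M21 and matched 55144 of 55471 identifiers. The 4 lines per library that name no gene (26.7 to 34.4% of reads) were left out.

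Genes were filtered with filterByExpr, scaled by TMM (factors 0.922 to 1.09) and tested with edgeR 4.0.16 (R 4.3.3) by the quasi-likelihood test over all 24 libraries, without covariates. Genes with a Benjamini-Hochberg adjusted p under 0.05 were called. Log2 fold changes are given ± SE. The procedure was tested on simulated data. With planted changes of 0.5 and 0.8 on the log2 scale, it recovered 20% and 42.9% for the difference of Lkb1-/- and wild-type responses. For IL-1β in Lkb1-/- MEFs the shares were 32.7% and 47.9%. Changes of these sizes were thus often missed. Alternatives were DESeq2 1.42.0, other scalings, no filter, unstranded counts, fits of only the groups compared, a replicate block, and leaving out each library.

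The members and lists were chosen with earlier results of these data known. All 34 members were accounted for. Values per library were given for 11 preset genes and, in each comparison, for the called member with the largest fold change per direction and branch. Of other lists, the called genes with the largest fold changes were named. The values of 1 gene of these lists are not reported here.

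Replicate numbers stand in the labels. They were taken to pair libraries where every same-numbered pair of deviations from the group means correlated above 0.1, which held for the IL-1β comparison of each line, for Lkb1-/- against wild-type MEFs with IL-1β, for A1 and A2 against Lkb1-/- MEFs with IL-1β, for A2 against Lkb1-/- MEFs untreated and for A2 against A1 with IL-1β. Over all pairs of groups, 84 same-number correlations ran from 0.0355 to 0.589 and 168 others from −0.488 to 0.238.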

Additional observations from a re-analysis of the deposited data

Results flagged for a closer look

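The response to IL-1β differed between Lkb1-/- and wild-type MEFs by a test of the difference itself for 7 of the 34 genes, where 0.245% of all genes were called and 0.108% were called lower. The differences on the log2 scale were −1.35 for Hmgcs1, −1.02 for Fdft1, −1.08 for Insig1, −1.04 for Cyp51, −0.94 for Lss, −0.88 for Hsd17b7 and −0.76 for Sqle. In each, the level fell in Lkb1-/- MEFs and was not called in wild-type MEFs. The calls of Hmgcs1 and Fdft1 held whichever single library was left out, and the other 5 did not.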

How the results depend on the processing

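No called gene changed direction under any setting. The counts of genes called moved by over 1.5 times in some. Shares of all genes were taken in the main fit alone, so the counts below have none beside them. Without a filter on low counts, 20 genes were called in A1 and 15 in A2 against Lkb1-/- MEFs untreated, 17 and 12 with IL-1β, 20 between the clones untreated, 2 for IL-1β in wild-type MEFs, 26 in A1, 25 for the difference of the Lkb1-/- and wild-type responses and 2 for that of A1 and Lkb1-/-. With the replicate number as a block, the counts were 17 (A1 against Lkb1-/- with IL-1β), 17 (A2 against A1 untreated), 1 (IL-1β in wild-type MEFs), 27 (IL-1β in A1) and 26 (response of Lkb1-/- minus wild-type MEFs). By the rule for pairing, the numbers did not pair A2 with A1 untreated (lowest correlation 0.0692). Nor did they pair all groups of the difference between the Lkb1-/- and wild-type responses (lowest 0.0355). With a block within each genotype, chosen after seeing the data, 29 and 6 differences of responses were called, for Lkb1-/- against wild-type and for A1 against Lkb1-/- MEFs. For IL-1β in A1, 16 were called with DESeq2, 15 with only those groups fitted and 14 with upper quartile scaling. For A2, 16 were called with only those groups, and for the difference of the Lkb1-/- and wild-type responses 17 with DESeq2. Apart from the construction of these fits, the cause was not tested.

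Leaving out 1 library gave 21 to 26 calls for Lkb1-/- against wild-type MEFs untreated and 30 to 32 with IL-1β, 9 to 15 and 7 to 11 for A1 and 5 to 8 and 6 to 8 for A2 against Lkb1-/- MEFs, and 6 to 12 and 11 to 18 between the clones. The response to IL-1β had 0 to 1, 21 to 27, 2 to 11 and 22 to 30 calls in wild-type, Lkb1-/-, A1 and A2 cells, and its difference between Lkb1-/- and wild-type MEFs 2 to 9. With the median over each branch in place of the mean, the branch difference changed by −0.758 between untreated Lkb1-/- and wild-type MEFs and by −1.29 with IL-1β, by 0.121 and 0.367 between A1 and Lkb1-/- MEFs, by 0.267 between A2 and Lkb1-/- MEFs with IL-1β and by 0.189 with IL-1β in wild-type MEFs. The mean gave −0.367 and −0.635 for the first pair and 0.0533 and 0.17 for A1. It gave 0.038 for A2 with IL-1β and 0.0808 for IL-1β in wild-type MEFs.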
